A study of Mus musculus with 12 samples.

Results

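The laminins and integrins described here join epithelial cells to the basement membrane, and 9 genes were followed by symbol among the 54658 genes of the deposited count tables. They were the laminin chain genes Lama3, Lama5 and Lamb3, the integrin alpha genes Itga3 and Itga6, the integrin beta genes Itgb1, Itgb4 and Itgb6, and Dst, which encodes the linker dystonin. The set was given by name, with no threshold on measured values, and all 9 were counted in every library and passed the filter on low counts.

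RNA sequencing covered 9 mammary tumours of genotype Trp53R245W/+, in which somatic p53 R245W was the driver named by the study, and 3 wild-type preparations of epithelium enriched from mammary glands of the same cohort. Mice of both groups were females of the C57BL/6J X BALB/cJ F1 cross, of ages that the labels do not state, and what introduced the somatic allele is not stated either. Each tumour keeps its label number (1, 4, 5, 14, 17, 20, 21, 24 or 27), as does each epithelium library (1, 2 or 3). The comparison asked how tumours differ from mammary epithelium, and the genotype, the tumour state and the title prefix of the libraries all followed the group, so their effects cannot be told apart. No label ties a tumour to a mouse, so p-values measure the spread between these libraries, which may be technical.

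As background, a laminin is a trimer of an alpha, a beta and a gamma chain that polymerizes or anchors in the sheet under an epithelium. The chains encoded by Lama3 and Lamb3 belong to the laminin that epithelial cells of skin and mammary gland bind most firmly, and the chain encoded by Lama5 pairs with more widely made beta and gamma chains. Integrin alpha 6 beta 4 grips laminin at hemidesmosomes, where plectin and dystonin tie it to keratin filaments, while alpha 3 beta 1 and alpha 6 beta 1 connect laminin to actin. In the mammary gland the basal (myoepithelial) cells sit on the basement membrane and carry most of these contacts. Integrin alpha v beta 6 is different in kind, since it binds fibronectin, tenascin and latent TGF-beta and not laminin.

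Gene counts per library ran from 19695318 to 33600076 in tumours and from 24247566 to 25543872 in epithelium. Values are counts per 1000000 (CPM) scaled by the trimmed mean of M values, each log2 fold change sets tumours over epithelium and has its standard error (SE), and p-values are from edgeR, adjusted over all 21456 genes tested unless another tool is named. Tumour 4 stood apart in its composition, with Rn7sk, a small nuclear RNA, taking 22.6% of gene counts and with 52.0% of its alignments not unique. Summed RNA of 8 pan-epithelial markers ran from 1343 to 5955 CPM in tumours and from 1522 to 2175 CPM in epithelium, and 4 of the 8 were higher in tumours. Summed B cell markers ran from 1.89 to 63.7 CPM in tumours and from 665 to 952 CPM in epithelium, and those of T and NK cells from 5.08 to 41.5 CPM and from 496 to 526.1 CPM. Macrophage markers summed to between 454 and 2450 CPM in tumours and between 497 and 538 CPM in epithelium, endothelial ones to between 229 and 899 CPM and between 1017 and 1322 CPM, and adipocyte ones to between 25.2 and 183 CPM and between 377 and 563 CPM. Luminal markers summed to between 1427 and 9175 CPM in tumours and between 3169 and 4917 CPM in epithelium, pericyte ones to between 119 and 614 CPM and between 348 and 473 CPM, keratinocyte ones to between 9.93 and 155 CPM and between 5.04 and 13.04 CPM, and skeletal muscle ones to between 1.79 and 80.2 CPM and between 5.63 and 9.30 CPM. The part of these cells in the results below was not tested, and in bulk RNA fewer cells of a type and less RNA per cell cannot be told apart.

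None of the 9 genes passed the test between tumours and epithelium in edgeR, and none reached an unadjusted p under 0.05. Over all genes tested, 20.3% were called, 8.89% higher and 11.4% lower in tumours, and 36% had an unadjusted p under 0.05. The fitted log2 fold change was above 0 in 8 of the 9 genes, with a median of 1.28 beside 0.17 over all genes. With limma-voom it was above 0 in 6 of the 9, where the median over all genes was -0.02. The share of all genes above 0 was not computed for either tool. No gene had tumours and epithelium without overlap, against 24.3% of all genes tested. DESeq2 called Itgb4 higher and limma-voom called Itga6, Itgb1 and Itgb4 higher, where these tools called 31.2% and 49.5% of the genes. The SD of log2 CPM over the tumours was above that of the median gene, 0.757, in 7 of the 9 genes, all but Itga6 and Itgb1.

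**Figure D1:**
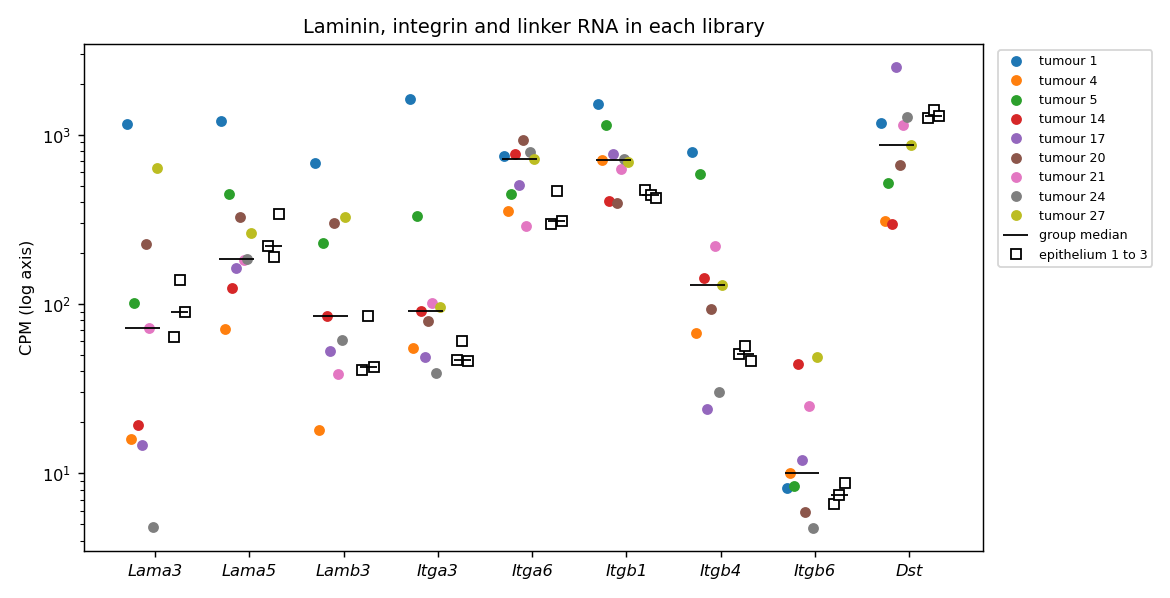
CPM of each of the 9 genes (log axis) in every library, with tumours as coloured circles on the left of each gene, epithelium libraries as open squares on the right, and lines at the group medians. Tumour 1 is the highest point for 6 of the 9 genes, and in each gene the points of the groups overlap.

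Promoter windows are shown for Itga3, Lama5 and Lamb3, the 3 genes in which tumour 1 stood apart from the other tumours. Each is the first window that RefSeq lists for the gene on GRCm38.p6, 250 bases before to 50 after the start, written from 5′ to 3′ on the gene's strand, at chr11:95076665-95076964 (minus), chr2:180225810-180226109 (minus) and chr1:193301744-193302043 (plus). Capitals mark an E-box, CAGGTG, or a GC box, GGGCGG, each on either strand.
Itga3: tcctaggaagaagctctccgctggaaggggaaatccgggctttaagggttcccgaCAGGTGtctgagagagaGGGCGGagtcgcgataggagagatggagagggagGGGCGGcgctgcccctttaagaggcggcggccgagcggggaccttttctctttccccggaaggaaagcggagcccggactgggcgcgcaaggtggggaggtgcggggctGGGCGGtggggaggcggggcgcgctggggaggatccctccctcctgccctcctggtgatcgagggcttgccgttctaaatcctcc
Lama5: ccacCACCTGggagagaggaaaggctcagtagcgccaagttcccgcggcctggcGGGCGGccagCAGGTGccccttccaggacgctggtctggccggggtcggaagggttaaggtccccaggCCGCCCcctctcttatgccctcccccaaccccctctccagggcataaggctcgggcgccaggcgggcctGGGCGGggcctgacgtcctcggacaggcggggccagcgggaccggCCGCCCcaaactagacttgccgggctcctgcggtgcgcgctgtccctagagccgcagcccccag
Lamb3: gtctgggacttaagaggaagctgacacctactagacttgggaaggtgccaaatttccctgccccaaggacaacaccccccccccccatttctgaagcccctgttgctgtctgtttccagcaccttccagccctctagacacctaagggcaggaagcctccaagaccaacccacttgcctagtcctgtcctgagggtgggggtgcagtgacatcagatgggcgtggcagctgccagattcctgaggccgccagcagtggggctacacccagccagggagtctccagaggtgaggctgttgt

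Of the 9 genes 6 had a window, Lama5, Lamb3, Itga3, Itgb1, Itgb6 and Dst. The E-box was in 3 of the 6 (Dst, Itga3 and Lama5), against 20% of 27025 first windows, and the GC box in 4 (Dst, Itga3, Itgb1 and Lama5), against 35.9%. The AP-1 sequence TGANTCA was in none of the 6, against 7.93% of windows. The windows of Lamb3 and Itgb6 held none of the 3 sequences. Among genes with a window, Lamb3, Itga3, Lama5 and Itgb1 were highest in the same tumour. Lama3 and Itgb4, also highest there, had no window. Whether the sequences bear on these levels was not tested. GC content was 66.7% for Itga3, 72.7% for Lama5 and 59.3% for Lamb3, against a median of 52.7%. For Lamb3, Itga3, Itgb6 and Dst 2 windows are listed, and only the first of each was searched. A match is a description of letters and not a bound site.

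Among the laminin chains, Lama3 varied most. It is a gene of 10745 exonic bases on chromosome 18 (12333819 to 12583013, GRCm38, plus strand) and encodes the alpha 3 chain of the firm epithelial laminin. It ran from 4.80 CPM in tumour 24 through a median of 72.4 CPM to 1149.9 CPM in tumour 1, and had 63.9, 138 and 89.6 CPM in epithelium libraries 1, 2 and 3. Tumours 1, 27 and 20 lay above all epithelium libraries and tumours 4, 14, 17 and 24 below them. In log2 fold change this was 1.36 (SE 1.43, adjusted p = 0.520), and 0.50 without tumour 1. With limma-voom it was -0.41, so the direction depended on the tool. The SD of log2 CPM over the tumours was 2.68, and only 0.844% of the genes tested had a larger one.

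Lamb3, on chromosome 1 (193207699 to 193343878, plus strand), encodes the beta 3 chain that assembles with alpha 3. It ran from 18.0 CPM in tumour 4 through a median of 84.9 CPM to 681 CPM in tumour 1, against 40.6, 85.1 and 42.2 CPM in the epithelium libraries. Tumours 1, 27, 20 and 5 lay above all epithelium libraries, and tumours 4 and 21 below. Its fold change was 1.83 on the log2 scale (SE 0.99, adjusted p = 0.201).

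Lama5, on chromosome 2 (180176373 to 180225859, minus strand), encodes the alpha 5 chain of the more widespread basement membrane laminins. It ran from 71.5 CPM in tumour 4 through a median of 184 CPM to 1206 CPM in tumour 1, against 220.1, 188 and 337 CPM in epithelium. Only tumours 1 and 5 exceeded every epithelium library, and 5 tumours lay below all of them. The fitted difference was 0.40 in log2 (SE 0.70, adjusted p = 0.709), -0.17 without tumour 1 and -0.016 with limma-voom, so its sign changed with that tumour and with the tool.

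Of the 8 laminin chain genes outside the 9, 1 fell and none rose, with a median log2 fold change of 0.33. That is 12.5% lower, close to the 11.4% of all genes tested. The one that fell was Lama2, the alpha 2 chain gene of muscle and nerve basement membranes, whose chain stroma and basal cells also make. It had 15.7 to 123 CPM in tumours and 193 to 272 CPM in epithelium, or -2.13 in log2 fold change with SE 0.52 and adjusted p = 0.0133, which became 0.0675 without epithelium library 1. Schwann cell markers summed to between 29.0 and 178 CPM in tumours and between 255 and 346 CPM in epithelium, and fibroblast markers to between 1368 and 32008 CPM and between 3879 and 5890 CPM. Their part in the difference in Lama2 was not tested.

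Per kilobase of exons, Lama3 and Lamb3 were close to each other in epithelium and not in most tumours. The ratio of Lama3 to Lamb3 per kilobase was 1.04 in tumour 1, 1.19 in tumour 27 and 1.16 in tumour 21, but 0.0483 in tumour 24, 0.139 in tumour 14, 0.172 in tumour 17, 0.270 in tumour 5, 0.465 in tumour 20 and 0.541 in tumour 4. It was 0.968, 0.999 and 1.31 in the epithelium libraries. Thus 6 of the 9 tumours lay below every epithelium library in this ratio of levels. The ratio of Lama3 to Lama5 per kilobase was 2.58 in tumour 27, 1.011 in tumour 1 and 0.0276 in tumour 24, against 0.307, 0.779 and 0.281 in epithelium.

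**Figure D2:**
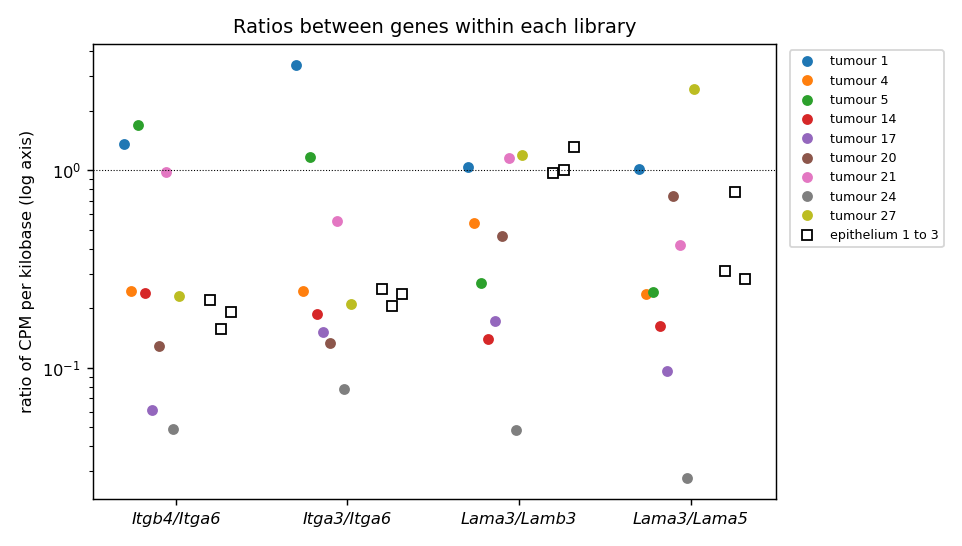
Ratios of CPM per kilobase of exons between 2 genes of the same library (log axis, dotted line at 1), with tumours as coloured circles and epithelium libraries as open squares. Tumour 24 is at 0.0483 for Lama3 over Lamb3 while epithelium sits between 0.968 and 1.31, and tumours 1 and 5 are above 1 for Itgb4 over Itga6.

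Integrin alpha subunits split into one gene that varied little and one that a single tumour dominated. Itga6, on chromosome 2 (71745616 to 71858416, plus strand), encodes the alpha chain shared by the hemidesmosome integrin and alpha 6 beta 1, and is used as a surface marker of basal and progenitor cells in mammary gland. It ran from 290 CPM in tumour 21 through a median of 722 CPM to 928 CPM in tumour 20, against 297, 463 and 307 CPM in epithelium. Tumours 20, 24, 14, 1, 27 and 17 lay above all epithelium libraries, and tumour 21 below. The log2 fold change was 0.79 (SE 0.37, adjusted p = 0.144), while limma-voom gave 0.73 with an adjusted p of 0.0267.

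Itga3, on chromosome 11 (95044474 to 95076801, minus strand), encodes the alpha 3 chain, which pairs with beta 1. It ran from 39.0 CPM in tumour 24 through a median of 90.7 CPM to 1612 CPM in tumour 1, against 46.8, 60.2 and 45.7 CPM in epithelium. Tumour 1 was 19.0-fold above the median of the other 8 tumours, and tumour 5 was next with 328 CPM. The log2 fold change was 2.42 (SE 1.24, adjusted p = 0.177) and 1.05 without tumour 1 (adjusted p = 0.207). DESeq2 replaced the count of 48542 in tumour 1 by 2153 before its fit, and then gave 0.98.

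Integrin beta subunits were led by Itgb4, whose product is made for hemidesmosomes and has only alpha 6 as a partner. Itgb4, on chromosome 11 (115974709 to 116008412, plus strand), ran from 23.9 CPM in tumour 17 through a median of 130.2 CPM to 784 CPM in tumour 1, against 50.8, 56.3 and 45.8 CPM in epithelium. Tumours 1, 5, 21, 14, 27, 20 and 4 lay above all epithelium libraries, and tumours 17 and 24 below them. The log2 fold change was 2.18 (SE 1.02, adjusted p = 0.144). Other tools put it at the threshold, with adjusted p of 0.0491 in DESeq2 and 0.0498 in limma-voom, where the fold change was 1.34.

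Itgb1, on chromosome 8 (128685654 to 128733200, plus strand), encodes the common beta 1 chain of most matrix integrins. It ran from 392 CPM in tumour 20 through a median of 707 CPM to 1507 CPM in tumour 1, against 469, 442 and 421 CPM in epithelium. The 7 tumours other than 14 and 20 lay above all epithelium libraries. The log2 fold change was 0.80 (SE 0.39, adjusted p = 0.161), and limma-voom gave 0.68 with an adjusted p of 0.0158. Beta 1 is also made by fibroblasts, endothelium and leukocytes.

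Itgb6, on chromosome 2 (60598292 to 60722643, minus strand), is an epithelial gene known to be switched on in wounds and carcinomas, and was the least abundant of the 9. It ran from 4.76 CPM in tumour 24 through a median of 10.02 CPM to 48.9 CPM in tumour 27, against 6.57, 7.47 and 8.81 CPM in epithelium. Tumours 27, 14 and 21 had 48.9, 43.9 and 24.8 CPM, and the other 6 lay between 4.76 and 12.02 CPM. The fit gave 1.28 in log2 (SE 0.75, adjusted p = 0.231). Tumour 1, the highest in 6 other genes, had 8.14 CPM of Itgb6, inside the range of epithelium.

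Per kilobase, the ratio of Itgb4 to Itga6 was 1.70 in tumour 5, 1.35 in tumour 1 and 0.974 in tumour 21, and 0.245, 0.240 and 0.232 in tumours 4, 14 and 27. It was 0.129, 0.0610 and 0.0491 in tumours 20, 17 and 24, against 0.2202, 0.156 and 0.192 in epithelium. The tumours thus lay on both sides of epithelium in the ratio of the hemidesmosome beta subunit to its alpha subunit. Itga3 over Itga6 was 3.42 in tumour 1, 1.17 in tumour 5 and 0.551 in tumour 21, 0.246 and 0.209 in tumours 4 and 27, and 0.187, 0.152, 0.134 and 0.0780 in tumours 14, 17, 20 and 24, against 0.249, 0.206 and 0.235 in epithelium.

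Dst, on chromosome 1 (33908225 to 34308661, plus strand), encodes dystonin, whose epithelial isoform binds keratin at hemidesmosomes while its other isoforms serve muscle and nerve. The counts are per gene and do not separate these isoforms. Dst was the only one of the 9 with a fitted fold change below 0. It ran from 295 CPM in tumour 14 through a median of 865 CPM to 2505 CPM in tumour 17, against 1254, 1403 and 1279.6 CPM in epithelium. Tumour 17 lay above all epithelium libraries, tumour 24 between them at 1269 CPM, and the other 7 below. The fit gave -0.44 in log2 (SE 0.54, adjusted p = 0.589), and -0.75 without tumour 17.

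**Figure D3:**
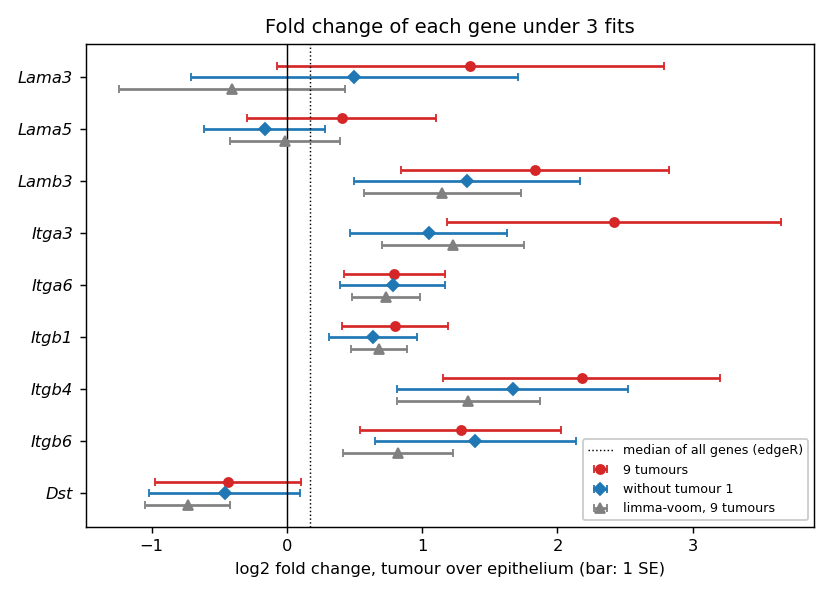
Log2 fold change of tumour over epithelium for each gene (points, bars of 1 SE) in edgeR with 9 tumours, in edgeR without tumour 1 and in limma-voom, with the median of all genes dotted at 0.17. Without tumour 1 the value is 1.05 for Itga3 and -0.17 for Lama5, and with all 9 tumours 2.42 for Itga3 and 0.40 for Lama5.

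Ordered by level per kilobase, Itgb1 stood first and Itgb6 last in both groups. In tumours the means were 189 ± 86.2 for Itgb1, 68.2 ± 24.6 for Itga6, 47.7 ± 89.3 for Itga3, 32.9 ± 38.4 for Itgb4, 30.1 ± 32.6 for Lamb3, 28.9 ± 30.5 for Lama5, 23.6 ± 16.6 for Dst, 23.2 ± 36.6 for Lama3 and 2.61 ± 2.37 CPM per kilobase for Itgb6 (SD, n = 9). In epithelium they were 109 ± 5.89 for Itgb1, 39.4 ± 10.3 for Itga6, 31.9 ± 1.94 for Dst, 21.8 ± 6.90 for Lama5, 9.05 ± 3.52 for Lama3, 8.92 ± 1.41 for Itga3, 8.46 ± 3.82 for Lamb3, 7.26 ± 0.749 for Itgb4 and 1.07 ± 0.159 CPM per kilobase for Itgb6 (SD, n = 3). The order of these means was not tested, and the SD over libraries does not measure how genes differ within a library. No order is drawn among the 6 genes from Itga3 to Lama3 in tumours or the 4 from Lama3 to Itgb4 in epithelium. These levels use the union of all annotated exons, which for Dst comes to 41155 bases.

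Tumour by tumour, tumour 1 carried the highest value of Lama3, Lama5, Lamb3, Itga3, Itgb1 and Itgb4, 6 of the 9 genes, and was the highest tumour in 14.2% of all genes tested. It was above all epithelium libraries in 7 of the 9 genes, as was tumour 27, while tumour 24 was above them in 2 and below them in 5. The share of all genes tested outside the epithelium range was not computed for any tumour, so these counts have no background beside them. Tumour 24 was the lowest tumour for Lama3, Itga3 and Itgb6, and tumour 4 for Lama5 and Lamb3. Over all genes tested, tumours 4, 5, 14, 17, 20, 21, 24 and 27 were highest in 18.2%, 7.46%, 7.69%, 8.03%, 9.85%, 13.6%, 11%, and 9.97%. Tumours 1, 4, 5, 14, 17, 20, 21, 24 and 27 were lowest in 17.6%, 24.4%, 6.67%, 6.47%, 5.36%, 10.6%, 10.2%, 11.5% and 7.27%, so tumour 4 was at an end more often than the others in general. By Dixon's ratio 1 tumour stood apart from the other 8 in 4 of the 9 genes, Lama5, Lamb3, Itga3 and Dst, against 28.6% of all genes tested. The sum over the 9 genes was 8860 CPM in tumour 1, 3102 CPM in the median tumour and 1606 CPM in tumour 4, against 2448 to 2843 CPM in epithelium. Pan-epithelial markers, which summed to 5955 CPM in tumour 1, were also highest there.

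**Figure D4:**
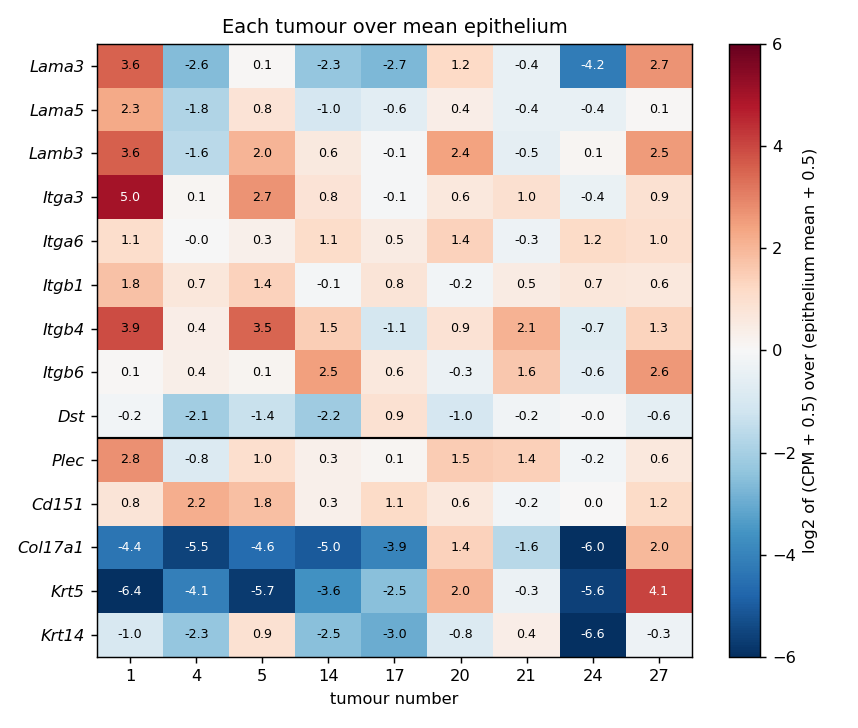
Log2 of each tumour's CPM plus 0.5 over the mean of epithelium plus 0.5, for the 9 genes above the line and 5 partner genes below it (columns are tumours, and the colour scale ends at 6 on both sides). Tumour 1 is red for the laminins and for the integrins other than Itgb6 and blue for Col17a1 and Krt5, while tumours 20 and 27 are red for Lama3, Lamb3, Col17a1 and Krt5.

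The remaining hemidesmosome parts and the keratins they hold peaked in different tumours. Of 7 such genes none was called by edgeR and 1 had an unadjusted p under 0.05, while limma-voom called 1 higher and 2 lower. Plec, which encodes the linker plectin, had 2228 CPM in tumour 1 and 185 CPM in tumour 4, with a median of 515 CPM in tumours, against 319.6, 335 and 332 CPM in epithelium (log2 fold change 1.13, SE 0.65, adjusted p = 0.226). Cd151, a tetraspanin that binds laminin integrins, had 79.3 to 400.2 CPM in tumours and 77.3 to 100.8 CPM in epithelium (1.07, SE 0.48, adjusted p = 0.128), and limma-voom called it higher. Col17a1, the transmembrane collagen of hemidesmosomes, had 206 CPM in tumour 27 and 136 CPM in tumour 20, and 16.4 CPM or less in the other 7 tumours, against 36.8 to 71.4 CPM in epithelium. Krt5, a basal keratin, had 912 CPM in tumour 27, 224 CPM in tumour 20 and 0.166 CPM, or 5 counts, in tumour 1, against 37.5, 76.0 and 49.4 CPM in epithelium. The tumour with the most laminin and integrin RNA therefore had the least Krt5 RNA of the 9. Basal markers as a list of 12 summed to between 274 and 5511 CPM in tumours and between 1679 and 2232 CPM in epithelium, highest in tumour 27, and none was called.

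In all, 8 pairs of genes were compared across the tumours, chosen as subunits of 1 receptor or laminin, as ligand and receptor, or as receptor and anchor. Lama3 and Lamb3 had the highest correlation of log2 CPM, with Pearson's r = 0.83 (exact permutation p = 0.00800, 0.0640 adjusted over the 8 relations) and Spearman's rho = 0.80 (exact permutation p = 0.0138, 0.111 adjusted) over 9 tumours. It missed the threshold after adjustment, and without tumours 1 and 24, the farthest from the median of Lama3, r was 0.81. Itga6 and Itgb4, the 2 subunits of the hemidesmosome integrin, had r = -0.09 (exact permutation p = 0.819) and rho = -0.18 (exact permutation p = 0.644) over 9 tumours. Itga3 and Itgb1 had r = 0.70 (exact permutation p = 0.0352, 0.141 adjusted) and rho = 0.23 (exact permutation p = 0.552), and r = -0.52 without tumours 1 and 5, so the relation rested on those tumours. Lamb3 and Itgb4 had r = 0.60 (exact permutation p = 0.0923, 0.246 adjusted) and rho = 0.50 (exact permutation p = 0.178). The other relations, Itga6 with Itgb1, Itgb4 with Dst, Itgb4 with Krt5 and Lamb3 with Krt5, had r of -0.22, -0.27, -0.24 and 0.07, none with an adjusted p under 0.05. All permutation tests were two-sided.

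**Figure D5:**
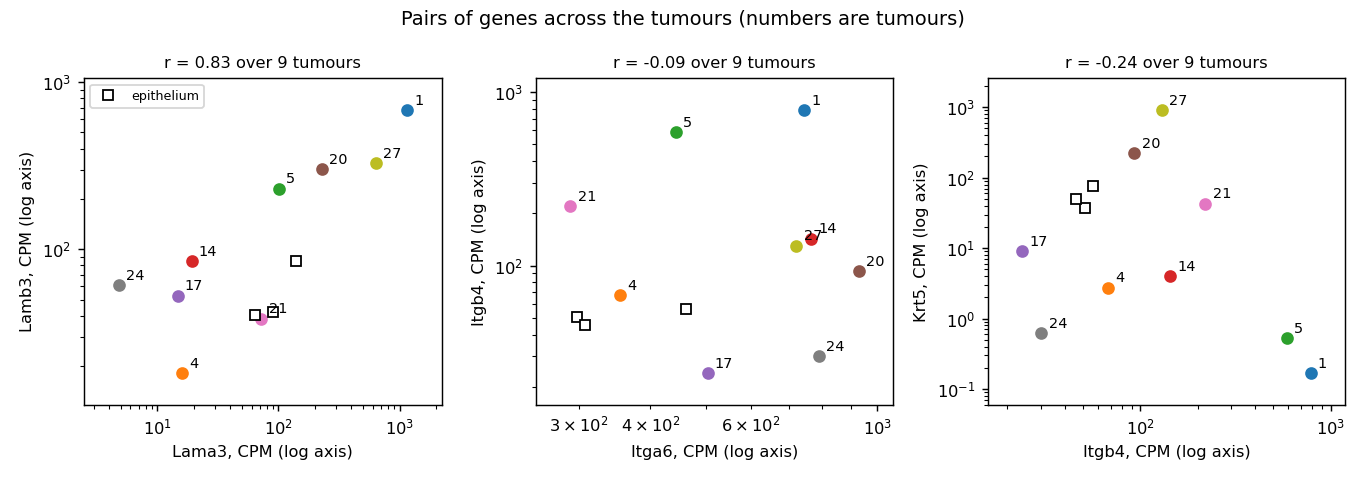
CPM of 3 pairs of genes (log axes) in each tumour, labelled by number, with epithelium libraries as open squares. Lama3 and Lamb3 line up with r = 0.83 over 9 tumours, while Itga6 and Itgb4 have r = -0.09 and Itgb4 and Krt5 r = -0.24.

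Among 11719 genes searched, those whose log2 CPM over the 9 tumours was most like a given gene's are named as a description, since the best of many genes over 9 tumours is high by selection. For Lama3 they were Mrs2 (r = 0.96) and Col7a1 (r = 0.96), the collagen of the anchoring fibrils under hemidesmosomes, and for Lama5 Enoph1 (r = 0.98) and Agrn (r = 0.97), the basement membrane proteoglycan agrin. Col7a1 and Agrn are on chromosomes 9 and 4. For Lamb3 the nearest were Slc25a3 and Rrp1, for Itga3 Clcf1 and Mapk13, for Itga6 Ybey and Cct2, and for Itgb1 Mlkl and Vps35. For Itgb4 they were Rarg (r = 0.98), which encodes a retinoic acid receptor, and Epb41l5 (r = 0.95), for Itgb6 Plb1 and Slc22a5, and for Dst Snx18 and Ttll5. Rarg had the same order over the 9 tumours as Itgb4, with 168 CPM in tumour 1 and 33.7 CPM in tumour 17.

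Set against epithelial RNA, measured as the mean log2 CPM of Epcam, Cdh1, Krt8 and Krt18 in the same library, the 9 genes looked different from their values per library. The difference of the group means, tumour minus epithelium, was 0.43 for Itgb4, 0.31 for Itga3 and 0.21 for Lamb3. It was -0.08 for Itgb6, -0.16 for Itga6 and -0.21 for Itgb1. It was -0.92 for Lama5, -1.35 for Lama3 and -1.63 for Dst. The SD over tumours was 1.54 for Itgb4, 1.36 for Itga3, 1.62 for Lamb3, 1.36 for Itgb6, 0.97 for Itga6, 0.53 for Itgb1, 1.14 for Lama5, 2.58 for Lama3 and 1.32 for Dst, larger than the difference in all but Dst. Leaving out 1 library turned the sign for Lamb3 (-0.14 to 0.65), Itga3 (-0.028 to 0.53), Itga6 (-0.42 to 0.13) and Itgb6 (-0.32 to 0.14), and gave 0.21 to 0.75 for Itgb4. Relative to these markers, 7 of 9 tumours lay below all epithelium libraries and none above in Dst. For Lama5 7 lay below and 2 above, and for Lama3 and for Itgb6 5 below and 3 above. For Itga6 4 tumours lay below and 2 above. Epcam itself, an epithelial adhesion gene, rose to 454 to 2023 CPM in tumours, against 249 to 274 CPM in epithelium (log2 fold change 1.75, SE 0.48, adjusted p = 0.0233). Cdh1 rose as well (1.54, SE 0.50, adjusted p = 0.0465). Epcam, Krt8 and Krt18 were also among the luminal markers, and the part of luminal content in these differences was not tested.

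Of 20 other basement membrane genes 4 rose and none fell. That is 20% called, beside 20.3% of all genes tested in either direction and 8.89% higher. Col18a1, the collagen that yields endostatin, had 190.4 CPM in tumour 17, a median of 395 CPM and 1825 CPM in tumour 1, against 87.1, 80.7 and 61.9 CPM in epithelium (log2 fold change 3.03, SE 0.79, adjusted p = 0.0178). Col4a5, a type IV collagen chain gene on the X chromosome, had 67.9 to 447 CPM in tumours and 53.9 to 103 CPM in epithelium (1.64, SE 0.51, adjusted p = 0.0380), and the other 2 that rose were Col4a2 and Agrn. Leaving out any 1 epithelium library left 0 of the 20 higher, so all 4 calls ended, those of Col18a1 and Col4a5 with adjusted p of up to 0.0912 and 0.169, and leaving out tumour 24 that of Col4a5 (0.0520).

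Of 12 further epithelial and matrix integrins 2 fell and none rose, 16.7% beside the 11.4% lower over all genes. These were Itga1, a collagen receptor chain gene (36.5 to 97.3 CPM in tumours, 113 to 146 CPM in epithelium, log2 fold change -0.98, SE 0.30, adjusted p = 0.0386), and Itga7, the laminin receptor chain of muscle (2.40 to 14.6 CPM in tumours, 15.98 to 19.9 CPM in epithelium, -1.42, SE 0.47, adjusted p = 0.0492). Leaving out an epithelium library ended both calls, with adjusted p of up to 0.156 for Itga1 and 0.167 for Itga7. So did leaving out tumour 5 (0.0581) or 21 (0.0506) for Itga1, and tumour 4, 5, 14, 17, 20, 21 or 24 for Itga7 (up to 0.0744). Of 7 other laminin receptors 1 rose, 14.3% beside the 8.89% higher over all genes. This was Dag1, which encodes dystroglycan, with 199 to 865 CPM in tumours and 105.5 to 125 CPM in epithelium (1.74, SE 0.43, adjusted p = 0.0136). It lay above all epithelium libraries in 9 of 9 tumours, and its adjusted p reached 0.0760 without an epithelium library.

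Of 9 integrin genes of leukocytes and platelets 4 fell, Itgb7, Itgal, Itga4 and Itgae, and none rose, or 44.4% lower beside 11.4% over all genes. Itgax and Itgam, chains of myeloid integrins, had log2 fold changes of 1.05 (adjusted p = 0.161) and 0.92 (adjusted p = 0.360) and lay above all epithelium libraries in 7 and 6 of 9 tumours. Itgb7, the beta chain of lymphocyte homing receptors, had 0.845 to 10.2 CPM in tumours and 111 to 122 CPM in epithelium (log2 fold change -5.08, SE 0.56, adjusted p = 8.84e-05), and Itgal, the alpha chain of LFA, had 2.11 to 22.1 CPM and 65.0 to 86.3 CPM (-2.65, SE 0.48, adjusted p = 0.00214). All 7 B cell and all 10 T and NK cell markers fell in the same comparison, and the part of lymphocytes in the integrin counts was not tested.

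Of 21 genes of adaptors that link integrins to actin 3 rose and 2 fell, 23.8% beside the 20.3% called over all genes. Actn4, an actin crosslinker, had 358 to 860.2 CPM in tumours and 175 to 211 CPM in epithelium (log2 fold change 1.77, SE 0.36, adjusted p = 0.00424), and the kinase gene Src had 46.3 to 269.6 CPM and 48.8 to 66.8 CPM (1.31, SE 0.42, adjusted p = 0.0449). Lims2, a partner of integrin-linked kinase, had 0.616 to 6.86 CPM in tumours and 20.9 to 30.6 CPM in epithelium (-3.18, SE 0.59, adjusted p = 0.00252), and Fermt3, the kindlin of blood cells, had 10.8 to 52.2 CPM and 79.3 to 91.1 CPM (-1.70, SE 0.41, adjusted p = 0.0114). The call of Src ended when an epithelium library was left out (0.173 at most) or tumour 5, 17, 20 or 24 (0.0642 at most), and that of Fermt3 when epithelium library 3 was (0.0569).

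Around Itgb6, its alpha partner and a list of matrix ligand and TGF-beta genes were measured too. The list holds the TGF-beta genes as a family, and whether the integrin binds the product of each was not examined. Itgav, its alpha partner, had 109 to 310.5 CPM in tumours and 178 to 205 CPM in epithelium (adjusted p = 0.885). Of 8 ligand and TGF-beta genes 2 rose and 1 fell, or 25% higher and 12.5% lower beside 8.89% and 11.4% over all genes. Tnc, the tenascin gene, had 81.5 to 3002 CPM in tumours and 58.6 to 75.4 CPM in epithelium (log2 fold change 3.60, SE 1.08, adjusted p = 0.0336), Tgfb2 had 10.2 to 125 CPM and 8.23 to 14.05 CPM (2.37, SE 0.78, adjusted p = 0.0481), and Vtn, the vitronectin gene, had 0.465 to 4.06 CPM and 22.7 to 25.5 CPM (-3.51, SE 0.43, adjusted p = 0.000148). The other TGF-beta genes, Tgfb1 and Tgfb3, were not called (log2 fold changes -0.37 and 0.17, adjusted p = 0.595 and 0.838). The calls of Tnc and Tgfb2 ended when an epithelium library was left out, at 0.131 and 0.176 at most, and that of Tgfb2 also when tumour 4, 14, 17, 21 or 24 was (0.0668 at most). Of 5 genes of proteases that trim laminin chains 1 fell, 20% beside the 11.4% lower over all genes. This was Tll1, with 1.27 to 6.84 CPM in tumours and 13.9 to 20.004 CPM in epithelium (-2.16, SE 0.44, adjusted p = 0.00438).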

How the data were processed

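Total RNA was made into TruSeq stranded libraries per the labels' protocols. The authors deposited raw counts per gene for each library, whole numbers with no normalization, with 5 summary rows that name no gene and were left out of library sizes and tests. Tools listed in the submitters' processing notes were HTSeq 0.11.0, TopHat2 2.1.1 and FastQC 0.11.8, on GRCm38. The annotation release and the strand setting of the counting are not stated there. Antisense genes overlap exons of Lama3, Itgb4 and Dst and had at most 87 counts in any library. Alignments outside annotated genes made up 8.08 to 32.3% of all alignments in tumours and 39.9 to 41.5% in epithelium, and that share was not used as a covariate.

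Groups and numbers were read from titles. Counts were fitted with edgeR 4.0.16 in R 4.3.3 (filterByExpr, trimmed mean of M values, quasi-likelihood F test with robust fitting, group only), with Benjamini-Hochberg adjustment over 21456 genes and a threshold of 0.05. SE was taken from the fold change and the F statistic. DESeq2 1.42.0 and limma 3.58.1 (voom with group weights) were alternatives. Log2 CPM outside the fits carry a prior count of 2. Correlations used exact permutation over 362880 pairings. Positions and exonic lengths are from GENCODE M21, which matched 54106 of 54658 symbols, and promoters are from RefSeq. The pipeline was tested on simulated data for this comparison with 20874 genes, and called 2% of 50 genes set to a 2-fold change. The share was 36% for 4-fold, 96% for 8-fold and 100% for 16-fold changes, and 6 of the 123 calls were false. In the deposited data the median SD of log2 CPM over all genes tested was 0.757 in tumours and 0.177 in epithelium. Recovery at these unequal spreads, or at the spread of the 9 genes, was not tested. The rest used scipy 1.17.1, numpy 2.4.6 and pandas 2.3.3 in Python 3.11.15, and matplotlib 3.10.9 for plots. No libraries were copies, since within a group chi-square over its degrees of freedom was at least 26.6.

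The 9 genes, the lists of related genes and the relations were chosen with earlier results of these data known. Named genes of other lists were the 2 called genes with the smallest adjusted p each way, and for a list with no call its 2 most abundant genes. Col4a2, Agrn, Krt5, Col17a1, Itgav, Itga4, Itgae, Itgax, Itgam, Tgfb1, Tgfb3 and Epcam were named after their values were seen. Alternatives were other scalings, other filters, other tools and leaving out each library. Protein sequences were not used here, and 1 item is not reported here.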

Additional observations from a re-analysis of the deposited data

Results flagged for a closer look

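In the tumours 1 sample can lie far from the other 8, measured by Dixon's ratio on CPM with the critical value 0.493 for 9 samples. Chance flags about 1 in 20 groups of normal values, and 28.6% of all genes tested had such a tumour. Tumour 1 stood apart with 1612 CPM of Itga3, 1206 CPM of Lama5 and 681 CPM of Lamb3, and with 2228 CPM of Plec among partner genes. Tumour 17 stood apart with 2505 CPM of Dst, tumour 27 with 912 CPM of Krt5, tumour 20 with 865 CPM of Dag1 and tumour 21 with 10.2 CPM of Itgb7. Tumour 4 stood apart in library composition, with 22.6% of gene counts in Rn7sk, 11.2% in mitochondrial genes, 8.08% of alignments outside genes and 52.0% not unique.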

How the results depend on the processing

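No paired analysis was possible, because the groups differ in genotype and no label ties a tumour to an epithelium library. The number 1 that both groups hold in their titles marks no pair. With limma-voom the log2 fold change was -0.41 for Lama3, -0.016 for Lama5, 0.73 for Itga6, 0.68 for Itgb1 and 1.34 for Itgb4, and with DESeq2 2.17 for Itgb4, so DESeq2 called 1 of the 9 genes higher and limma-voom 3. Leaving out each library gave -0.17 to 0.68 for Lama5, with -0.17 without tumour 1. Over all genes DESeq2 called 3788 higher, and limma-voom 4994 higher and 5622 lower, against 1908 higher and 2438 lower in edgeR. Leaving out each library gave 506 to 2486 higher and 1496 to 2753 lower, lowest without an epithelium library, which leaves 2. All genes had a median of 0.17 in log2, and of 0.07 with upper quartile scaling.

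In the gene lists, limma-voom called 1 higher and 2 lower among other laminin chains, where DESeq2 called 2 lower, and 7 higher and 3 lower among other basement membrane genes. It called 1 higher and 2 lower in the hemidesmosome list, 1 higher among matrix integrins, 1 higher among leukocyte integrins, 4 higher and 1 lower among laminin receptors, 7 higher among adaptors and 2 higher among laminin proteases. DESeq2 called 2 laminin receptors, 5 adaptors and 1 laminin protease higher. With no filter, and with at least 10 counts in 9 libraries, 2 basement membrane genes, 1 adaptor and 1 TGF-beta partner were higher, and upper quartile scaling also left 1 TGF-beta partner. Matrix integrins lower numbered 1 with scaling without the 50 most abundant genes, 1 without Rn7sk and mitochondrial genes and 0 with no filter. Leaving out each library gave 0 to 2 lower laminin chains, 0 to 4 higher and 0 to 1 lower basement membrane genes, 0 to 2 lower matrix integrins, 0 to 1 higher laminin receptors, 1 to 3 higher and 1 to 3 lower adaptors and 0 to 3 higher TGF-beta partners.

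Without the 2 farthest tumours r was -0.52 for Itga3 and Itgb1 and 0.012 for Itgb4 and Krt5. Leaving out each tumour gave r of 0.74 to 0.88 for Lama3 and Lamb3, where the highest, without tumour 21, passed with an adjusted p of 0.0440, -0.28 to 0.051 for Itga6 and Itgb4, -0.51 to 0.017 for Itga6 and Itgb1, -0.49 to 0.083 for Itgb4 and Dst, -0.46 to 0.032 for Itgb4 and Krt5 and -0.20 to 0.45 for Lamb3 and Krt5. Reversed single values were 0.03 without tumour 5, 0.03 without tumour 21 and 0.051 without tumour 24 for Itga6 and Itgb4, 0.017 without tumour 20 for Itga6 and Itgb1, 0.083 without tumour 17 for Itgb4 and Dst, 0.032 without tumour 1 for Itgb4 and Krt5, and -0.01, -0.08 and -0.20 without tumours 4, 20 and 27 for Lamb3 and Krt5. The cause was not tested. Relative to epithelial markers, leaving out 1 library turned the sign of 4 small differences, with -0.14 to 0.65 for Lamb3, -0.028 to 0.53 for Itga3, -0.42 to 0.13 for Itga6 and -0.32 to 0.14 for Itgb6, moves below 1 SD over the tumours.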

Other observations

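Tumours 20 and 27, which held more Lama3 and Lamb3 than any epithelium library, were the 2 highest tumours in 9 of the 12 basal markers, a pattern noted after the values were seen. The share of all genes with these tumours as the 2 highest was not computed. Tumour 1, with the most Lama3 and Lamb3 (1150 and 681 CPM), also exceeded every epithelium library in both. It was not among the 2 highest tumours in any of the 12 markers. Trp63, a transcription factor of basal cells, had 316 and 237 CPM in tumours 20 and 27 and 29.6 CPM or less in the other 7 tumours, against 23.3 to 48.0 CPM in epithelium. Acta2, the smooth muscle actin of myoepithelium, had 995 and 992 CPM there and 169 CPM or less in the others, against 469 to 534 CPM in epithelium. The 3 exceptions were Krt14, Krt17 and Oxtr. Krt14, a basal keratin, was highest in tumours 5 and 21 (277 and 197 CPM) and had 84.8 and 120.0 CPM in tumours 20 and 27, against 95.6 to 244 CPM in epithelium. Krt17 had 414 CPM in tumour 27 but 61.4 CPM in tumour 21 and 39.9 CPM in tumour 20, against 76.1 to 133 CPM in epithelium. Oxtr, the oxytocin receptor gene, had 195 CPM in tumour 14 and 15.97 and 39.4 CPM in tumours 20 and 27, against 49.9 to 73.6 CPM in epithelium. Tumours 1 and 5, the highest in Itgb4, had 2.1 CPM of Trp63 each, and 75.0 and 277 CPM of Krt14. These values describe single tumours and were not tested.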
